A study of Mus musculus with 39 samples.

Results

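Type I interferon-stimulated genes are switched on in cells that receive interferon alpha or beta, and 40 of them are described here. They were chosen by symbol from a fixed list, and all 40 were among the 20520 genes of the expression table and among the 13650 genes that were tested, those reaching 1 CPM (reads of a gene scaled to the reads of its library) in 9 or more libraries. The study profiled PB2 mouse breast tumors, which the submitters call xenografts, by directional poly(A) RNA sequencing of bulk tumor RNA. The tumors carried either FL-HER2, the full-length form of the receptor tyrosine kinase HER2, or p95HER2, a truncated form that lacks most of the extracellular part. They were collected 10 or 22 days after implantation, which gave 10 libraries of each construct at day 10, 9 of FL-HER2 at day 22 and 10 of p95HER2 at day 22. The PB2 background is common to all 4 groups. The sources used here do not give the host strain, the promoter of the constructs, the number of clones or an HER2-negative control. Whether each library comes from a separate animal is not stated either, so p-values measure the spread between these libraries.

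Type I interferons (interferon beta and the interferon alphas) bind the receptor pair IFNAR1 and IFNAR2 and activate the kinases JAK1 and TYK2. These phosphorylate transcription factors such as STAT2, which works with IRF9 in a complex that binds the interferon-stimulated response element (ISRE) in target promoters. The targets include sensors of foreign nucleic acid, antiviral effectors, and components such as IRF7 and USP18 that amplify or restrain the response. Nearly every nucleated cell can respond, so in a tumor the RNA of these genes can come from tumor cells, leukocytes and stroma.

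The sequence feature that ties the set to this pathway is the ISRE core, searched as the letters GAAANNGAAA on both strands within 250 bases before and 50 bases after each RefSeq start site (GRCm38.p6). RefSeq promoters were matched by symbol for 31 of the 40 genes, and 16 of these 31 (51.6%) held at least 1 match. The share was 3.71% among the 10645 other tested genes with a promoter (395 genes) and 3.44% among all 32851 promoters. The 8 windows below were chosen because they hold matches before the start site in genes whose values follow, paralog pairs included, printed 5′ to 3′ on the strand of the gene, with every match in capitals and 20 bases on either side where these lie before the start site.
Isg15: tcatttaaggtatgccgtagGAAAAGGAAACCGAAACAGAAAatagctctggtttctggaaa
Oas1a: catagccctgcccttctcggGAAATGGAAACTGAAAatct
Oas1g: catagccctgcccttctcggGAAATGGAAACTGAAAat
Rsad2: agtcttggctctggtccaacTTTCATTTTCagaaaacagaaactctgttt
Trim30a: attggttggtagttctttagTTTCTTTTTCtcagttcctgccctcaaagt
Ifit1: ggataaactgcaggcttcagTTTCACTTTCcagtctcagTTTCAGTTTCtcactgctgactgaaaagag
Ifit3: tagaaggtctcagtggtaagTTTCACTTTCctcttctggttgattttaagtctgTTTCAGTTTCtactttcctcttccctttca
Ifit3b: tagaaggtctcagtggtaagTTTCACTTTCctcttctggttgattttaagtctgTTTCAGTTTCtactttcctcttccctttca
These windows lie at chr4:156200855-156200916 (Isg15, minus strand), chr5:120907526-120907565 (Oas1a, minus), chr5:120887614-120887651 (Oas1g, minus), chr12:26456543-26456592 (Rsad2, minus), chr7:104465200-104465249 (Trim30a, minus), chr19:34640765-34640833 (Ifit1, plus), chr19:34583353-34583436 (Ifit3, plus) and chr19:34607749-34607832 (Ifit3b, plus). Isg15 held 3 overlapping matches that began between 78 and 66 bases before the start site. The windows of the paralogs Ifit3 and Ifit3b carry the same letters, as do those of Oas1a and Oas1g over the stretch they share. These windows lie before the start site and do not show how alike the transcripts are. Whether reads of these pairs were divided or lost between similar copies was not tested, so their separate values are uncertain. The RefSeq promoters of Epsti1, Sp100, Lgals3bp and Oasl2 held no match, which says only that these letters are not in this window. A match is a description of the sequence and not evidence of binding.

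Each library held between 21772259 and 44427621 reads, so 1 CPM stood for at least 21.8 reads. The epithelial markers Krt8 (459 to 752 CPM) and Epcam (421 to 773 CPM) were present in every library, as the breast tumor label states. Tumor numbers are written in the labels with 3 digits, except that 8 FL-HER2 tumors of day 10 (all but replicates 7 and 9) have 5-digit numbers. The labels do not say what the longer numbers stand for. Replicates are numbered here in record order, which makes no pairs, and FL-HER2 day 10 replicate 8 was assigned by its description because its title gives another tumor number.

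The level of the set varied widely between libraries of one group, most in FL-HER2 day 10 and least in FL-HER2 day 22. The mean log2 value of the 40 genes ran from 10.01 to 12.63 in FL-HER2 day 10 (median 11.48) and from 9.79 to 11.86 in p95HER2 day 10 (median 10.82). At day 22 it ran from 10.54 to 11.53 in FL-HER2 (median 11.05) and from 9.84 to 11.32 in p95HER2 (median 10.46). The ranges of the 4 groups overlap, and the lowest and the highest FL-HER2 day 10 libraries lie farther apart than any pair of group medians. This was not so for FL-HER2 day 22. Between-group differences held a median of 21.5% of the variance of a member, from 8.15% for Irf9 to 49.8% for Ifi27l2a, beside 33.4% for all tested genes.

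**Figure D1:**
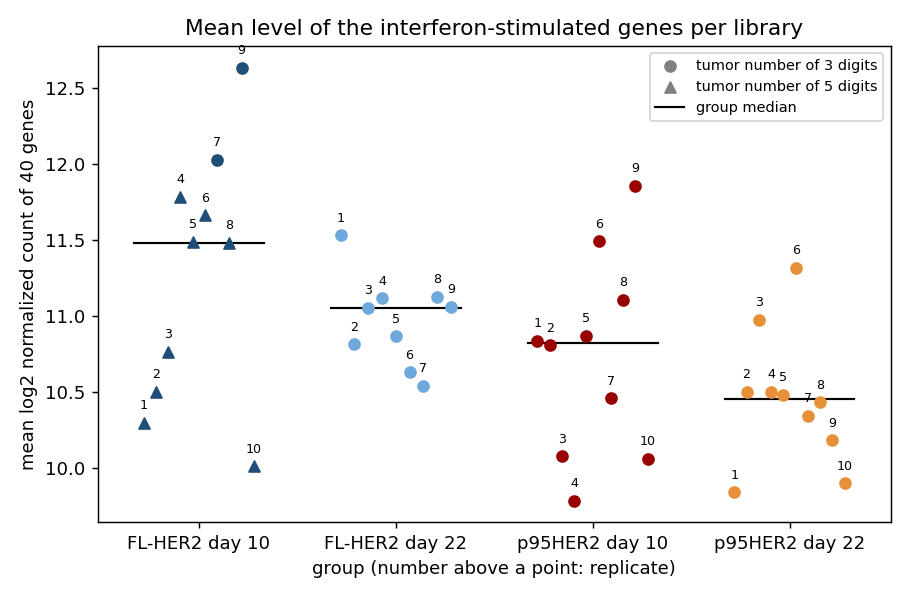
Mean log2 normalized count of the 40 interferon-stimulated genes (vertical axis) in each of the 39 libraries, by group, with the replicate number above each point, the shape giving the number of digits of the tumor number and a line at the group median. FL-HER2 day 10 spans 10.01 to 12.63, the widest range, and its replicates 9 and 7 are the highest points.

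Single libraries stood at the top or bottom of their group for most of the set at once. FL-HER2 day 10 replicate 9 had the highest value of its group for 39 of the 40 genes and the highest of all 39 libraries for 38, and the CPM of the 40 genes summed to 11396 there. Replicate 10 of the same group was the lowest for 36 genes, with a sum of 2438 CPM. Among p95HER2 day 10 libraries, replicate 9 was the highest for 36 genes (7609 CPM summed) and replicate 4 the lowest for 33 (2097 CPM). At day 22, FL-HER2 replicate 1 was the highest of its group for 33 genes and replicate 7 the lowest for 26. In the p95HER2 day 22 group replicate 6 was the highest for 37, and replicates 1 and 10 the lowest for 21 and 16.

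**Figure D2:**
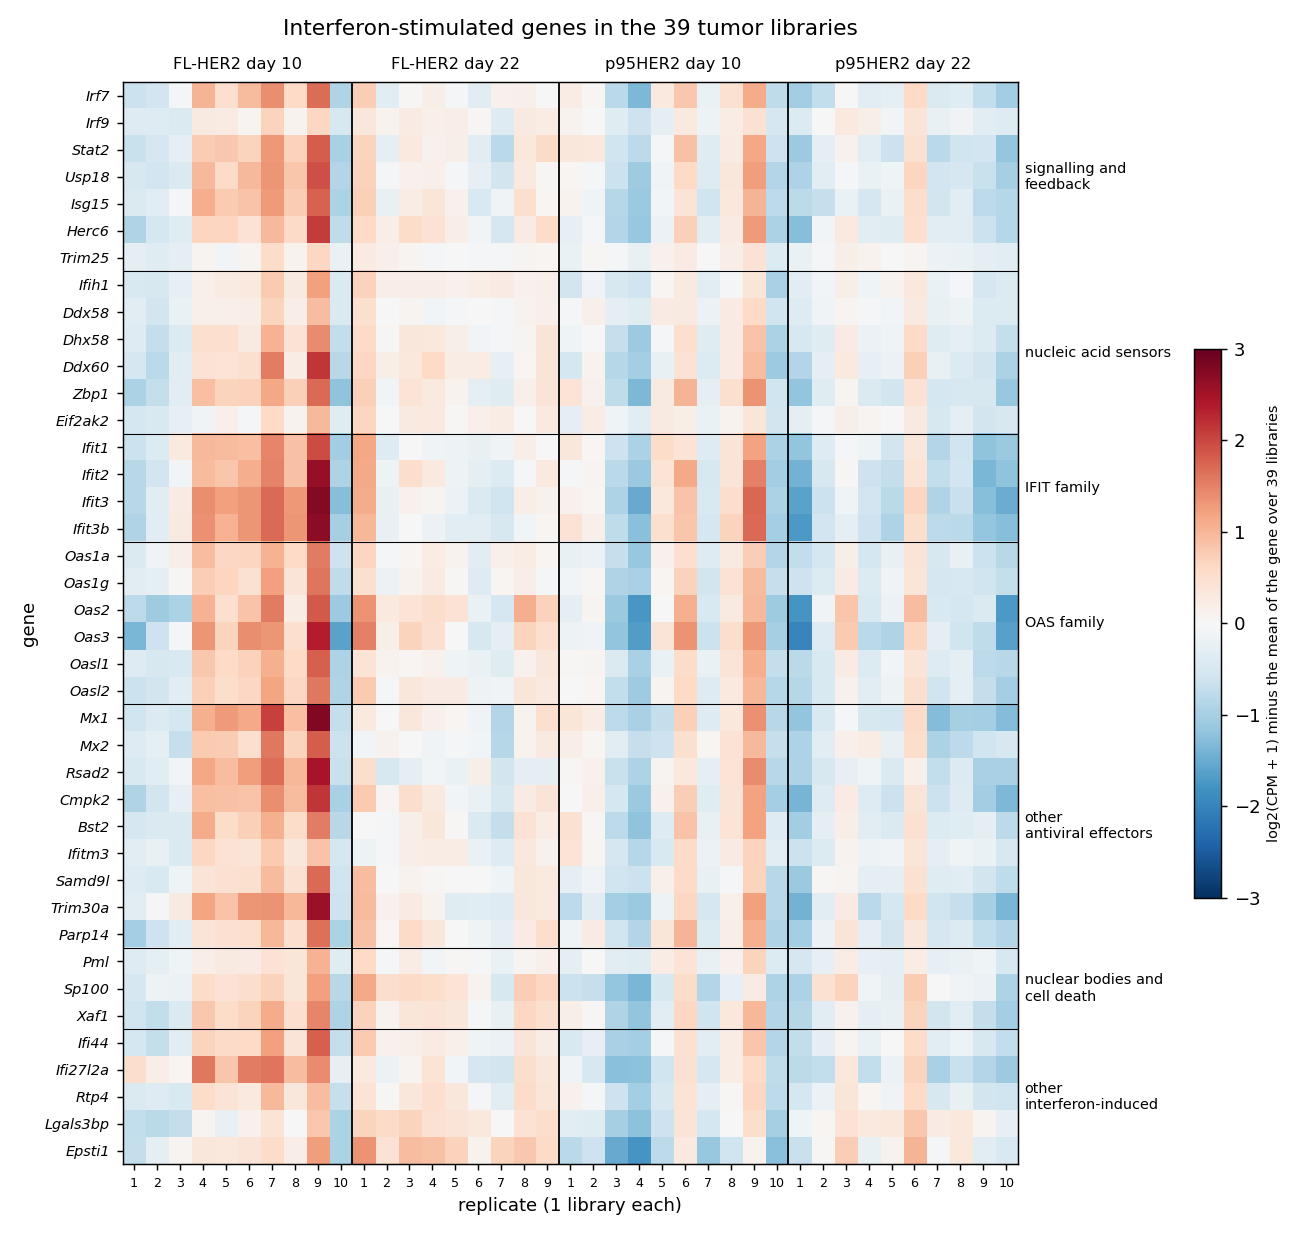
Heat map of the 40 genes (rows, by role) in the 39 libraries (columns, by group and replicate), coloured by log2(CPM + 1) minus the mean of the gene over all libraries. Columns are nearly uniform in colour, so that a library is high or low for most rows together, with FL-HER2 day 10 replicates 7 and 9 the reddest and the bluest columns in p95HER2 day 10 replicate 4 and p95HER2 day 22 replicates 1 and 10.

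The members rose and fell together across libraries. After the mean of each group was subtracted, the first principal component held 92.4% of the variance of the 40 genes, beside 45.1% for the 13650 tested genes. All 780 pairs of members correlated positively over the 39 group-centred libraries (median Pearson r 0.92, from 0.61 to 0.99), and the libraries that set these values are shared by every pair. Within single groups the median r was 0.97 in FL-HER2 day 10, 0.94 in p95HER2 day 10, 0.90 in p95HER2 day 22 and 0.75 in FL-HER2 day 22, where the lowest pair stood at -0.33. Oasl2 followed the mean of the other members most closely (r 0.99) and Eif2ak2, which encodes the double-stranded RNA kinase PKR, least (r 0.86). Outside the set, the 10 tested genes with the highest r against the member mean over the same 39 libraries were Phf11d (0.99), Apol9b (0.99), Parp12 (0.98), Trim21 (0.98), Apol9a (0.98), Gbp3 (0.98), Trim12a (0.98), Trim34a (0.97), Slfn2 (0.97) and Gbp9 (0.97). Of the 9 among them with a RefSeq promoter, 6 held the ISRE core.

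Within a group the members spread more widely than a usual tested gene. The median standard deviation of their log2 values was 0.88 in FL-HER2 day 10, 0.35 in FL-HER2 day 22, 0.70 in p95HER2 day 10 and 0.48 in p95HER2 day 22, where the medians over all tested genes were 0.19, 0.19, 0.20 and 0.15. The highest library exceeded the lowest by a median of 6.40-fold in FL-HER2 day 10 and 4.38-fold in p95HER2 day 10. At day 22 these ratios were 2.18-fold in FL-HER2 and 3.01-fold in p95HER2, beside 1.39-fold to 1.56-fold for all tested genes in the 4 groups. Trim25, an E3 ligase that helps activate the RNA sensor RIG-I, varied least in every group. Oas3, one of the oligoadenylate synthetases that activate the nuclease RNase L, varied most in 3 groups, and Oas2 did in p95HER2 day 22.

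**Figure D3:**
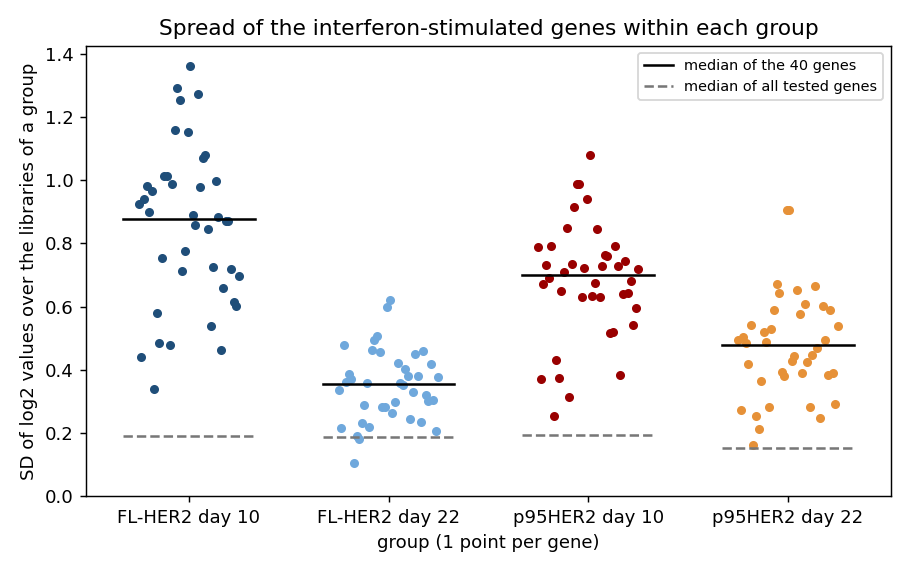
Standard deviation of log2 values over the libraries of each group (vertical axis), 1 point per interferon-stimulated gene, with the median of the 40 genes (solid line) and of all 13650 tested genes (dashed line). The solid line lies above the dashed line in all 4 groups, at 0.88 against 0.19 in FL-HER2 day 10 and 0.35 against 0.19 in FL-HER2 day 22.

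Whether the spread itself changed was tested on the distance of each value from its group median, with limma over all tested genes. From day 10 to day 22 in FL-HER2, all 40 members were narrower (median difference -0.43 log2 units, -0.00363 over all tested genes). Of them 28 had an unadjusted p under 0.05, as did 5.20% of all tested genes, but none passed adjustment (lowest adjusted p 0.931) and the share of all genes called was 0%. Because the members rose and fell together over the same libraries, these 28 and the other counts of members are not counts of independent genes. In p95HER2, 40 of 40 were narrower with time (median -0.19), 2 had an unadjusted p under 0.05, none passed, and 0% of all genes did. Between the constructs 39 of 40 were narrower in p95HER2 at day 10 (median -0.13) and 38 of 40 wider at day 22 (median 0.09). None of these had an unadjusted p under 0.05 at either day, where 0% and 0.00733% of all genes passed adjustment.

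At day 10, 8 of the 40 genes fell in p95HER2 relative to FL-HER2 tumors and none rose. The 8 were Ifi27l2a, Epsti1, Trim30a, Sp100, Oas1a, Rsad2, Isg15 and Ifih1, with log2 changes from -1.29 to -0.44. All 40 estimates were negative (median -0.51, beside -0.04 over all tested genes), and the ranges of the 2 groups overlapped for each of the 40. Over all tested genes 26.1% fell and 15.2% rose in this comparison, so that the share of members called is not above the background. The count was 5 without any 1 of FL-HER2 day 10 replicates 4, 6, 7 or 9 or p95HER2 day 10 replicates 3, 4 or 10, and it was 14 without FL-HER2 replicate 1, 17 without p95HER2 replicate 9 and 18 without FL-HER2 replicate 10. Ifi27l2a, Epsti1, Trim30a, Sp100 and Oas1a passed in each of the 39 fits that left out 1 library. A fit on the 2 groups alone called 4, Epsti1, Ifi27l2a, Sp100 and Trim30a. Of the 15 other alternatives, 9 lost the call of Ifih1, 5 each those of Isg15, Oas1a and Rsad2, 2 each those of Epsti1, Sp100 and Trim30a, and 1 that of Ifi27l2a.

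The 2 FL-HER2 day 10 libraries with 3-digit tumor numbers were the highest of that group, at mean log2 values of 12.03 (replicate 7) and 12.63 (replicate 9), where the 8 with 5 digits ran from 10.01 to 11.78. The 5-digit libraries were lower for all 40 genes (median -1.36), 39 of these with an unadjusted p under 0.05 beside 14.4% of all tested genes, and none after adjustment (lowest adjusted p 0.145). This split was chosen after seeing the data and sets the 2 highest libraries of the group against the other 8. The 40 genes moved together there, so they are not independent observations. Without the 2 libraries, 4 members fell in p95HER2 at day 10 (Ifi27l2a, Epsti1, Trim30a and Sp100) and the median of the set was -0.22. With a term for the number of digits, which leaves replicates 7 and 9 as the FL-HER2 reference, 38 fell and the median was -1.59. Shares of all tested genes in these 2 fits are not given here. The tumor number format and the construct cannot be told apart for the other 8 libraries.

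**Figure D4:**
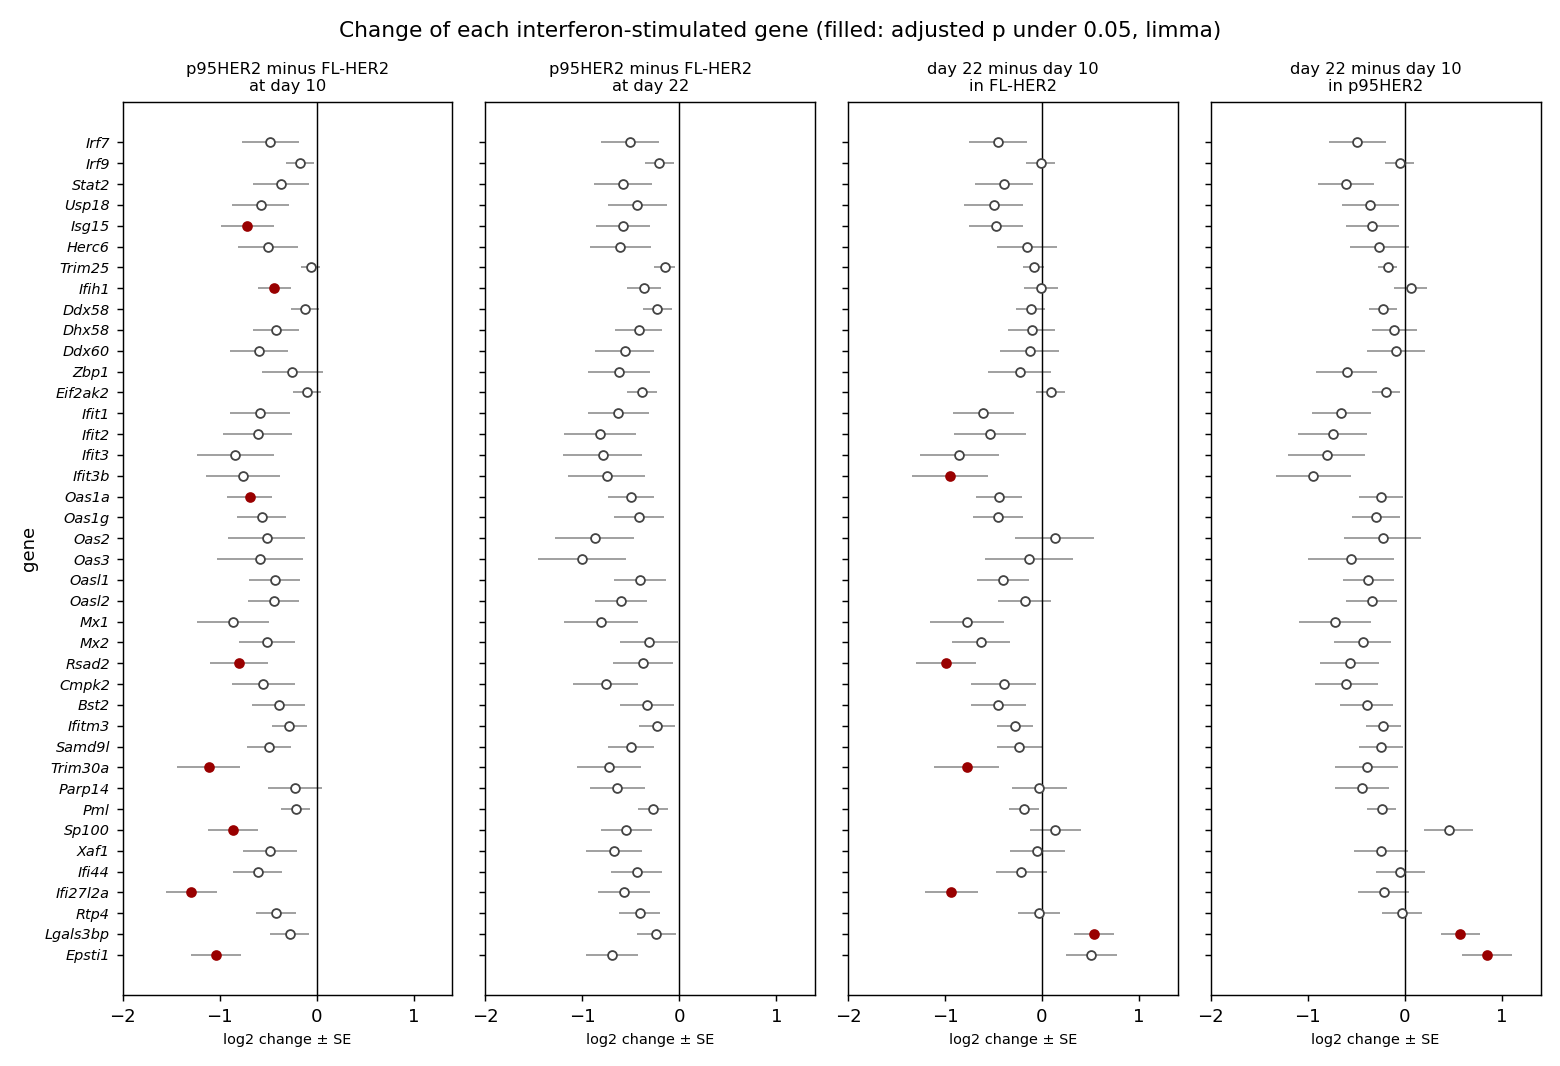
Log2 change with its standard error (horizontal axis) of each of the 40 genes in 4 comparisons, filled where the adjusted p of limma was under 0.05. All 40 points lie left of 0 in both comparisons of p95HER2 with FL-HER2, 8 of them filled at day 10 and none at day 22. Of the changes with time, 35 of 40 in FL-HER2 and 36 of 40 in p95HER2 lie left of 0.

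Markers of some leukocyte types and of adjacent tissue moved with the same comparison, in which 26.1% of all tested genes fell. At day 10, 8 of 8 pan-leukocyte markers fell in p95HER2 (median -0.74), 10 of 10 macrophage markers (median -0.74), 5 of 5 monocyte markers (median -1.51) and 20 of 20 skeletal muscle markers (median -4.45). So did 5 of 8 fibroblast markers (median -1.13; summed level 6934 to 20147 CPM in FL-HER2 and 4125 to 9124 CPM in p95HER2) and 5 of 6 endothelial markers (median -0.51). The summed pan-leukocyte level ran from 387 to 546 CPM in FL-HER2 and from 253 to 504 CPM in p95HER2. The muscle level ran from 476 to 37573 CPM and from 34.5 to 10240 CPM. Other leukocyte lists did not all go this way by summed level. Medians in FL-HER2 and p95HER2 were 9.59 and 10.2 CPM for neutrophil markers and 33.9 and 38.8 CPM for conventional dendritic cell markers. T cell markers had medians of 15.4 and 12.5 CPM, and NK cell markers 15.6 and 6.31 CPM. Ccr2, the chemokine receptor of inflammatory monocytes, fell by 1.30 on the log2 scale (SE 0.17, adjusted p 1.96e-07). With the mean of the pan-leukocyte markers as a covariate, no member fell, Parp14 rose by 0.67 and the median of the set was 0.25, and with the muscle mean 1 member fell (Ifi27l2a, -0.98). Skin markers were raised (mean log2 value of at least 6) in 2 FL-HER2 (replicates 7 and 10) and 5 p95HER2 libraries of day 10 (replicates 2, 3, 7, 8 and 9), which include the highest p95HER2 and the lowest FL-HER2 library of the set. Without all 11 libraries with raised skin markers 7 members fell at day 10, with a median of -0.72. In bulk RNA, fewer cells of a type and less RNA per cell cannot be told apart.

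Within FL-HER2 day 10 the pan-leukocyte mean spanned 10.00 to 10.80 on the log2 scale, a smaller range than the 10.01 to 12.63 of the member mean. Replicate 10, the lowest for most members, was also the lowest library of its group in the monocyte mean (7.32) and in muscle reads (0.0476% of its reads). Replicate 9 had the highest monocyte mean (9.63) and the highest mean of interferon gamma targets (13.93). Replicate 7, the library with the member mean nearest to that of replicate 9, went the other way, with the third-lowest monocyte mean (8.47), the second-lowest macrophage mean (10.46) and the third-lowest pan-leukocyte mean (10.31) of the group. The NK cell mean spanned 3.63 (replicate 10) to 7.49 (replicate 9) in this group, with 6.19 in replicate 7. In each of the 4 groups the library with the highest NK cell mean also had the highest member mean. The part of NK cells in the member values was not tested. The 8 markers listed for plasmacytoid dendritic cells, the leukocytes best known for interferon alpha, summed to 378 to 613 CPM in FL-HER2 and 249.3 to 319 CPM in p95HER2 at day 10. Of the 4 that could be tested, Ly6d and Cox6a2, which is also a muscle gene, fell in p95HER2, Runx2 rose and Tcf4 did not pass. Siglech, the most specific of the list, ran from 0.0623 to 1.84 CPM over all libraries. The B cell list had no tested gene.

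Among the 7 genes of signalling and feedback, 1 fell at day 10 and none changed in the other comparisons. Isg15 (chr4:156199424-156200818, mm10) encodes a ubiquitin-like protein that is conjugated to other proteins and also secreted. It ran from 40.4 to 273 CPM (median 136) in FL-HER2 and from 36.3 to 162 CPM (median 73.4) in p95HER2 tumors at day 10. At day 22 it ran from 57.6 to 130 CPM (median 86.4) and from 43.1 to 114 CPM (median 54.5). The p95HER2 median was lower at both days, but the single libraries overlapped throughout. The log2 change was -0.72 (SE 0.27, adjusted p 0.0333) at day 10 and -0.58 (SE 0.28, adjusted p 0.268) at day 22, and the day 10 call was lost in 10 of the 39 fits without 1 library.

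Irf7 encodes the factor that amplifies interferon alpha production. Its day 10 values were 95.3 to 574 CPM (median 262) in FL-HER2 and 69.6 to 390 CPM (median 197) in p95HER2. By day 22 they were 145 to 302 CPM (median 184) and 86.0 to 272 CPM (median 136). The groups overlapped, and the log2 change of -0.48 (SE 0.29) at day 10 did not pass (adjusted p 0.193). Trim25 was the steadiest member, with a highest library 1.24-fold above the lowest in FL-HER2 day 22 (140 to 173 CPM, median 151), the smallest such ratio of any member and group. Its values were 113 to 223 CPM (median 146) in FL-HER2 day 10, 109 to 196 CPM (median 147) in p95HER2 day 10 and 114 to 165 CPM (median 135) in p95HER2 day 22. Its medians hardly differ between groups, and its log2 change at day 10 was -0.06 (SE 0.10, adjusted p 0.645).

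The other members of this role were Irf9 and Stat2, which encode subunits of the ISRE-binding complex, Usp18, which removes ISG15 and blocks the receptor, and Herc6, the main ISG15 ligase of mice. Their day 10 changes lay between -0.58 (Usp18) and -0.17 (Irf9), with adjusted p from 0.116 to 0.366. Irf9 kept within 71.2 to 174 CPM over the 39 libraries, whereas Herc6 ran from 11.02 to 124 CPM.

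Of the 6 nucleic acid sensors, 1 fell at day 10. Ifih1 (chr2:62595798-62646255) encodes MDA5, the cytosolic sensor of long double-stranded RNA. In day 10 tumors it ran from 63.6 to 213 CPM (median 103) with FL-HER2 and from 45.4 to 116 CPM (median 77.3) with p95HER2. In day 22 tumors it ran from 98.1 to 146 CPM (median 103) and from 62.9 to 111 CPM (median 83.4). The FL-HER2 libraries of day 22 lay close together apart from replicate 1, and the groups overlapped. The log2 change at day 10 was -0.44 (SE 0.17, adjusted p 0.0372), and 11 of the 39 fits without 1 library lost the call.

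Zbp1 encodes a sensor of left-handed nucleic acid that can trigger necroptosis. It ran from 55.6 to 430 CPM (median 209) in FL-HER2 day 10 and from 50.4 to 332 CPM (median 150) in p95HER2 day 10. The day 22 ranges were 101 to 215 CPM (median 145) and 56.9 to 178 CPM (median 93.5). Zbp1 moved little at day 10 (-0.25, SE 0.31, adjusted p 0.542), and without the 2 FL-HER2 libraries of 3 digits the estimate was 0.0355. The RNA helicases Ddx58 (RIG-I), Dhx58 (LGP2) and Ddx60 and the kinase gene Eif2ak2 had day 10 changes between -0.60 (Ddx60) and -0.10 (Eif2ak2) and none passed.

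No member of the IFIT family, several of whose proteins bind foreign RNA, passed between the constructs. Ifit1 ran from 48.1 to 390 CPM (median 185) in FL-HER2 day 10 and from 51.2 to 233 CPM (median 116) in p95HER2 day 10. At the later day Ifit1 ran from 76.7 to 225 CPM (median 92.8) and from 42.7 to 128 CPM (median 66.8). Its day 10 change was -0.58 (SE 0.31, adjusted p 0.125) with overlapping groups. Ifit3, which forms complexes with IFIT1, had one of the widest ranges, from 31.3 to 523 CPM in FL-HER2 day 10, a ratio of 16.7. The family had day 10 changes of -0.84 to -0.58 and day 22 changes of -0.82 to -0.63.

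Ifit3b (chr19:34607970-34613401), the near-copy of Ifit3, passed the test with time in FL-HER2. The estimates of all 4 members of the family were negative, from -0.95 to -0.53 in FL-HER2 and from -0.94 to -0.65 in p95HER2, where all 4 had an unadjusted p under 0.05 and none passed. In FL-HER2 tumors it ran from 11.9 to 164 CPM (median 57.7) at day 10 and from 17.4 to 50.8 CPM (median 21.9) at day 22. In p95HER2 tumors it ran from 9.75 to 82.7 CPM (median 30.7) and from 6.82 to 35.9 CPM (median 13.8). The highest libraries of both constructs were those of day 10, and the days overlapped. It fell with time in FL-HER2 (-0.95, SE 0.39, adjusted p 0.0426), a call that 14 of the 39 fits without 1 library and 10 of the 15 other alternatives lost. The p95HER2 estimate was close to it (-0.94, SE 0.38, adjusted p 0.0536). Some alternatives called the p95HER2 fall, the fit on only the groups compared and the muscle covariate among them.

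In the OAS family, which turns double-stranded RNA into a signal for RNase L, 1 of 6 genes fell at day 10. Oas1a (chr5:120896256-120907521) ran from 44.1 to 202 CPM (median 104) in FL-HER2 day 10 and from 30.6 to 114 CPM (median 59.3) in p95HER2 day 10. Day 22 values were 54.9 to 107 CPM (median 73.2) and 37.7 to 88.9 CPM (median 48.0). Of the 10 p95HER2 libraries, 3 at day 10 and 6 at day 22 lay below every FL-HER2 library of the same day, and the others overlapped with FL-HER2. The log2 change was -0.69 (SE 0.23, adjusted p 0.0152) at day 10 and -0.50 (SE 0.24, adjusted p 0.261) at day 22.

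Oasl2 is an OAS-like gene whose product ends in ubiquitin-like domains. It ran from 129 to 727 CPM (median 359) in FL-HER2 day 10 and from 114 to 482 CPM (median 245) in p95HER2 day 10. At day 22 the ranges were 217 to 415 CPM (median 286) and 119 to 336 CPM (median 186). Both p95HER2 medians were below those of FL-HER2, and neither difference passed (day 10 -0.44, SE 0.26, adjusted p 0.176; day 22 -0.60, SE 0.27, adjusted p 0.221). Oas3 had the highest ratio of highest to lowest library of any member and group, 17.2 in FL-HER2 day 10 (10.0 to 172 CPM, median 49.8). Its other groups ran from 23.1 to 95.3 CPM (median 45.8, FL-HER2 day 22), 9.48 to 84.2 CPM (median 29.9, p95HER2 day 10) and 7.61 to 57.0 CPM (median 19.997, p95HER2 day 22). Its estimate of -0.999 (SE 0.45, adjusted p 0.230) at day 22 was the lowest of the set there and did not pass.

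**Figure D5:**
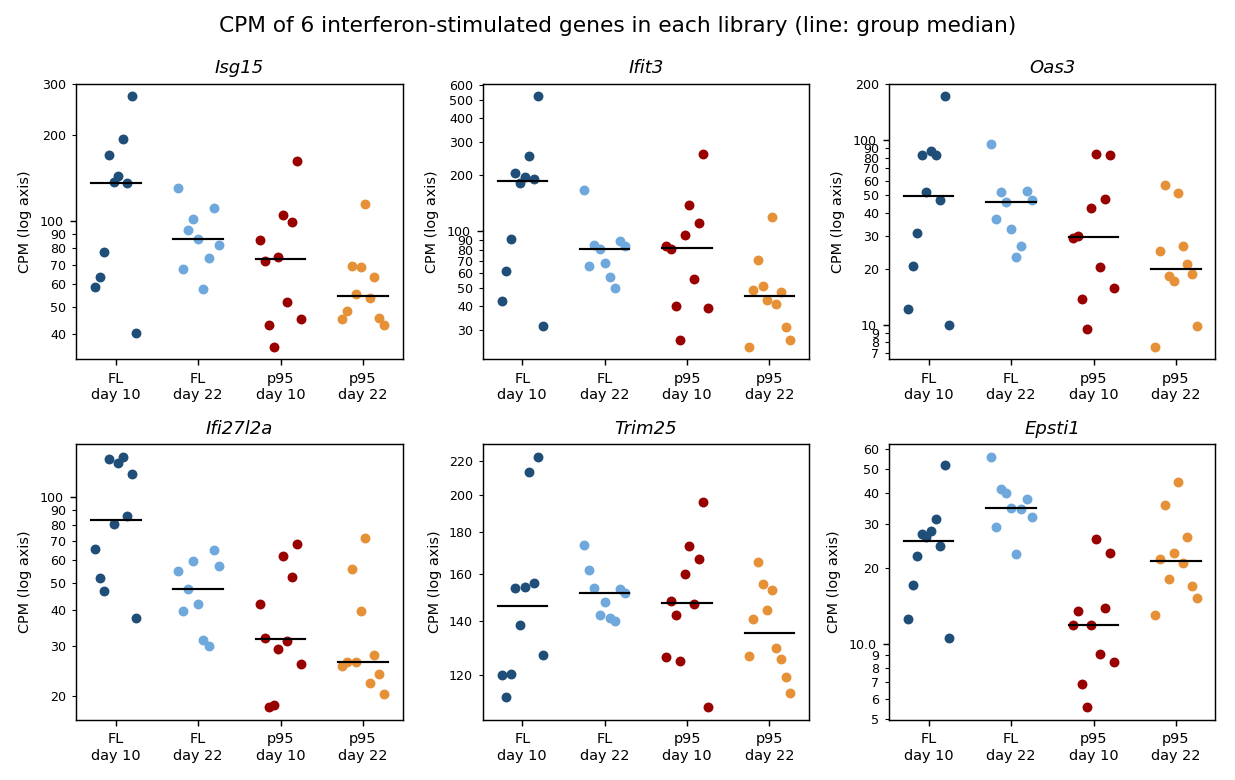
CPM on a log axis of Isg15, Ifit3, Oas3, Ifi27l2a, Trim25 and Epsti1 in each library of the 4 groups, with a line at the group median. Oas3 spans 10.0 to 172 CPM in FL-HER2 day 10 alone, and Trim25 stays between 109 and 223 CPM in all libraries. On the log axis the Ifi27l2a medians differ most between constructs at day 10.

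Among the 9 other antiviral effectors, Trim30a and Rsad2 fell at day 10. Trim30a (chr7:104409025-104465193) encodes a TRIM protein that restrains Toll-like receptor signalling. At day 10 it ran from 20.2 to 193 CPM (median 60.8) in FL-HER2 and from 14.0 to 75.3 CPM (median 23.6) in p95HER2. At day 22 it ran from 23.7 to 61.6 CPM (median 34.7) and from 11.2 to 48.3 CPM (median 19.9). At day 10, 9 of the 10 p95HER2 libraries lay below the FL-HER2 median, and at day 22, 8 of 10 did. The log2 change was -1.11 (SE 0.32, adjusted p 0.00582) at day 10 and -0.73 (SE 0.33, adjusted p 0.237) at day 22. Trim30a also fell with time in FL-HER2 (-0.78, SE 0.33, adjusted p 0.0495), a call that 25 of the 39 fits without 1 library and 10 of the 15 other alternatives lost, voom and no filter among the latter.

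Rsad2 (chr12:26442746-26456452) encodes viperin, which makes a chain-terminating nucleotide that stops viral RNA synthesis. It ran from 19.0 to 177 CPM (median 61.0) in FL-HER2 day 10 and from 15.9 to 84.2 CPM (median 32.1) in p95HER2 day 10. Day 22 tumors had 20.7 to 45.0 CPM (median 25.5) and 15.2 to 34.5 CPM (median 22.3). The high values were those of day 10, with overlap among all groups. It fell in p95HER2 at day 10 (-0.80, SE 0.30, adjusted p 0.0316; the call was lost in 7 of the 39 fits without 1 library) and with time in FL-HER2 (-0.99, SE 0.31, adjusted p 0.00739). These 2 comparisons share the FL-HER2 day 10 libraries.

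Ifitm3 encodes a membrane protein that hinders the fusion of viruses with endosomes. Its range was 422 to 1110 CPM (median 793) in FL-HER2 day 10 and 339 to 979 CPM (median 593) in p95HER2 day 10. At day 22 it was 469 to 768 CPM (median 668) and 394 to 783 CPM (median 546). The groups overlapped, and the day 10 change of -0.28 (SE 0.18) did not pass (adjusted p 0.208). Mx1 and Mx2 (dynamin-like GTPases, Mx2 annotated as a polymorphic pseudogene), Cmpk2, Bst2 (tetherin), Samd9l and Parp14 had day 10 changes of -0.86 (Mx1) to -0.22 (Parp14) with adjusted p from 0.0592 to 0.542.

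Sp100 (chr1:85649988-85709998), a component of PML nuclear bodies, fell at day 10. It ran from 20.1 to 86.6 CPM (median 47.9) in FL-HER2 and from 13.4 to 53.6 CPM (median 22.4) in p95HER2. At day 22 it ran from 25.8 to 80.9 CPM (median 52.8) and from 18.2 to 62.4 CPM (median 33.9). Sp100 was lowest in the p95HER2 day 10 group, in which replicate 6 was the 1 library above the FL-HER2 median. The change was -0.86 (SE 0.26, adjusted p 0.00673) at day 10 and -0.55 (SE 0.26, adjusted p 0.266) at day 22. Pml, the scaffold of the same bodies, ran from 52.0 to 143 CPM (median 80.0) and from 51.5 to 109 CPM (median 64.0) at day 10, and from 59.3 to 103 CPM (median 70.4) and from 48.2 to 80.5 CPM (median 57.6) at day 22, FL-HER2 first. The groups overlapped, and neither Pml (-0.22, SE 0.15, adjusted p 0.255) nor the pro-apoptotic Xaf1 (-0.48, SE 0.28, adjusted p 0.169) passed at day 10.

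Of the 5 remaining members, Ifi27l2a and Epsti1 fell at day 10 and Lgals3bp rose with time. Ifi27l2a (chr12:103442167-103443680), which encodes a small hydrophobic interferon-induced protein, had the lowest estimate of the set at day 10. It ran from 37.6 to 139 CPM (median 83.2) in FL-HER2 and from 18.3 to 68.5 CPM (median 31.6) in p95HER2. By day 22 the ranges were 30.1 to 65.5 CPM (median 47.6) and 20.4 to 71.9 CPM (median 26.3). At day 10, 6 of the 10 p95HER2 libraries lay below every FL-HER2 library. The highest FL-HER2 library was not replicate 9. It was replicate 7 by CPM, with replicate 4 close to it at 136 CPM, and replicate 4 on the normalized log2 scale. Its log2 change was -1.29 (SE 0.26, adjusted p 0.000172) at day 10 and -0.57 (SE 0.27, adjusted p 0.257) at day 22, and it fell with time in FL-HER2 (-0.94, SE 0.27, adjusted p 0.00409). The difference between its day 10 and day 22 construct effects was 0.72 (SE 0.38, adjusted p 0.175).

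Epsti1 (chr14:77904239-78002657), named for its induction in epithelial cells by stroma, ran from 10.5 to 52.0 CPM (median 25.7) in FL-HER2 day 10 and from 5.56 to 26.2 CPM (median 11.9) in p95HER2 day 10. At day 22 it ran from 22.9 to 55.9 CPM (median 34.8) and from 13.0 to 44.2 CPM (median 21.4). Both constructs had higher medians at day 22, against the direction of most members. It fell in p95HER2 at day 10 (-1.04, SE 0.26, adjusted p 0.00147) and rose with time in p95HER2 (0.85, SE 0.26, adjusted p 0.00863). In FL-HER2 the time change was 0.51 (SE 0.27, adjusted p 0.107), and some alternatives called it, voom (0.66) and quantile normalization (0.61) among them. The test of the difference between the 2 time changes gave 0.34 (SE 0.37, adjusted p 0.540).

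Lgals3bp (chr11:118392751-118402092) encodes a secreted galectin-binding glycoprotein. In FL-HER2 tumors it ran from 315 to 1068 CPM (median 557) at day 10 and from 606 to 968 CPM (median 834) at day 22. In p95HER2 tumors it ran from 257 to 869 CPM (median 447) and from 513 to 1053 CPM (median 730). The lowest libraries of day 22 stood above the day 10 medians in both constructs, and the upper ends overlapped. It rose with time by 0.53 (SE 0.20, adjusted p 0.0276) in FL-HER2 and by 0.57 (SE 0.20, adjusted p 0.0220) in p95HER2, while the construct differences of -0.28 and -0.24 did not pass. The FL-HER2 call was lost in 4 of the 39 fits without 1 library and the p95HER2 call in 1, and the rank-sum test lost both. Ifi44 and Rtp4 had day 10 changes of -0.61 and -0.41 (adjusted p 0.0541 and 0.105).

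At day 22 no member passed between the constructs in the limma fit, where 1.54% of all tested genes fell and 2.98% rose. All 40 estimates were negative (median -0.53, beside -0.01 over all tested genes), from -0.999 (Oas3) to -0.15 (Trim25), and 17 had an unadjusted p under 0.05. The lowest adjusted p was 0.136 (Epsti1). With the pan-leukocyte mean as a covariate, 19 of the 40 estimates were positive and 21 negative, and none passed. A rank-sum test and voom on the recovered reads also called none. A fit on the 2 groups alone called 8 (Cmpk2, Eif2ak2, Epsti1, Ifih1, Ifit2, Oasl2, Parp14 and Xaf1, all lower in p95HER2). The main fit used 1 estimate of the spread per gene for all 4 groups. The median standard deviation of members was 0.88 and 0.70 at day 10 and 0.35 and 0.48 at day 22, FL-HER2 first. The absence of calls in the main fit therefore does not show that the constructs were alike at day 22. T cell markers moved with this comparison: 5 of 8 fell in p95HER2 (median -1.62), and their summed level ran from 21.4 to 87.6 CPM in FL-HER2 and from 8.17 to 52.3 CPM in p95HER2. Their part in the member values was not tested.

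From day 10 to day 22 in FL-HER2, 1 member rose (Lgals3bp) and 4 fell (Rsad2, Ifit3b, Ifi27l2a and Trim30a), with a median of -0.23 over the set and 35 of 40 estimates negative. Over all tested genes 20.7% rose and 30.6% fell, so both shares of members are below the background. The count of 5 was 3 without any 1 of FL-HER2 day 10 replicates 4, 5, 6, 7 or 8 or FL-HER2 day 22 replicates 2, 3, 4, 5, 6, 7 or 9, 9 without FL-HER2 day 10 replicate 1 and 11 without FL-HER2 day 10 replicate 10. Without the 2 libraries of 3 digits the median was -0.01, Ifi27l2a fell, and Lgals3bp and Epsti1 rose. With the term for digits 31 members fell, the median was -1.40 and the Lgals3bp estimate turned to -0.25, and the share of all tested genes in that fit is not given here. Monocyte markers moved with this comparison, 5 of 5 lower at day 22 (median -0.92; summed level 47.2 to 167 CPM at day 10 and 33.3 to 63.1 CPM at day 22). T cell markers went up, 7 of 8 of them (median 1.54; summed level 9.37 to 29.9 CPM and 21.4 to 87.6 CPM). Fibroblast markers fell, 8 of 8 (median -2.25; 1007 to 2922 CPM at day 22), as did 6 of 6 endothelial (median -0.68) and 8 of 20 muscle markers (median -2.67; 248.9 to 9114 CPM at day 22). The mammary epithelium markers, Krt8 and Epcam among them, had a mean log2 value of 12.18 to 12.81 at day 10. At day 22 it was 10.86 to 11.62, with no overlap. Their summed level, 1959 to 2948 CPM at day 10 and 1810 to 2234 CPM at day 22, did overlap. The macrophage mean had a median of 10.88 at day 10 and 10.28 at day 22, with overlap. The part of these cells in the member values was not tested.

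In p95HER2 tumors 2 members rose with time (Lgals3bp and Epsti1) and none fell in the main fit, while 16.6% of all tested genes rose and 18.6% fell. Some alternatives also called a fall of Ifit3b. The median of the set was -0.28, with 36 of 40 estimates negative. Fibroblast markers fell with this comparison, 7 of 8 (median -1.01; summed level 1364 to 2646 CPM at day 22). So did 2 of 5 monocyte and 2 of 4 NK cell markers, and 3 of 10 macrophage markers rose and 1 fell. The mammary epithelium mean ran from 12.23 to 12.78 on the log2 scale at day 10. At day 22 it ran from 11.14 to 11.97, with no overlap, while the summed level overlapped (2184 to 3012 CPM and 2022 to 2364 CPM). Their part in the member values was not tested. With the pan-leukocyte covariate 12 members passed, 2 higher and 10 lower, Ifit1, Ifit2, Ifit3 and Ifit3b among the latter. The share of all tested genes called in that fit is not given here. No member passed the test of a change of the p95HER2 effect between days (lowest adjusted p 0.175, none with an unadjusted p under 0.05), where 19.6% of all tested genes did. This test and the comparisons above share their libraries.

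The ligands themselves were scarce in these libraries. Of 21 interferon genes on the list 12 were in the table, and Ifng, the type II interferon of T and NK cells, was the 1 that could be tested. Ifnb1 reached at most 0.492 CPM (17 reads), in FL-HER2 day 10 replicate 9, and no more than 4 reads in any library of the other groups. Ifng ran from 0.0268 to 3.74 CPM (median 0.941) in FL-HER2 day 10, from 0.124 to 2.76 CPM (median 1.01) in FL-HER2 day 22, from 0.0275 to 3.20 CPM (median 0.535) in p95HER2 day 10 and from 0.0285 to 1.08 CPM (median 0.205) in p95HER2 day 22. Its highest library was the one with the highest member mean in FL-HER2 day 10, FL-HER2 day 22 and p95HER2 day 22. No construct difference of Ifng passed (adjusted p 0.799 at day 10 and 0.155 at day 22).

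More of the interferon receptor genes passed with time in FL-HER2 than between the constructs at either day. Ifnar1 stayed between 58.6 and 85.0 CPM in all libraries with no change in any comparison, and its r against the member mean was -0.51 over 39 group-centred libraries. Ifnar2 ran from 41.8 to 67.7 CPM and fell with time in FL-HER2 (-0.32, SE 0.07, adjusted p 0.000321), and its r was 0.72. For Ifngr2 the same r was 0.50, for Ifnlr1 0.19, for Ifngr1 -0.02 and for Il10rb -0.03. Of the 6 receptor genes 1 rose and 1 fell in p95HER2 at day 10, beside 15.2% and 26.1% of all tested genes (Ifnlr1 0.26, the interferon lambda receptor, and Ifngr1 -0.23, a chain of the interferon gamma receptor), and none passed at day 22. With time 1 rose and 4 fell in FL-HER2 (20.7% and 30.6% of all tested genes), and 2 fell in p95HER2 (18.6%). The effect on Ifngr1 differed between days (0.39, SE 0.10, adjusted p 0.00616).

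Of the 10 kinases and factors downstream, 1 rose and 3 fell in p95HER2 at day 10, beside 15.2% and 26.1% of all tested genes. Jak1 fell (-0.25, SE 0.04, adjusted p 1.54e-06), as did Irf5 (-0.74, SE 0.15, adjusted p 0.000219) and Irf2 (-0.33, SE 0.12, adjusted p 0.0300), and Stat3, which serves interleukin receptors, rose (0.24, SE 0.08, adjusted p 0.0112). The Jak1 effect differed between days (0.30, SE 0.05, adjusted p 0.000161). None of the 10 passed at day 22.

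Of 14 tested genes that sense nucleic acid or relay that signal, 1 rose and 3 fell at day 10 (15.2% and 26.1% of all tested genes), and 2 fell at day 22 (1.54%). Tlr7, the endosomal sensor of single-stranded RNA, fell at both days (-1.10, SE 0.14, adjusted p 1.62e-07, and -0.58, SE 0.15, adjusted p 0.0164). Mavs, the adaptor of RIG-I and MDA5, fell slightly at day 10 (-0.13, SE 0.05, adjusted p 0.0281). With time 1 rose and 6 fell in each construct, among them Tlr4 (-0.50 in FL-HER2 and -0.56 in p95HER2), the sensor of bacterial lipopolysaccharide. Of all tested genes, 20.7% rose and 30.6% fell in FL-HER2, and 16.6% rose and 18.6% fell in p95HER2. Ticam1, an adaptor of Toll-like receptors, was the 1 that rose in both (0.19 and 0.39).

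Among 6 negative regulators 1 fell at day 10, beside 26.1% of all tested genes, and none passed at day 22. The 1 was the phosphatase gene Ptpn6 (-0.35, SE 0.11, adjusted p 0.00752). Socs3 and Socs1, feedback inhibitors of JAK kinases, fell with time in both constructs. Socs3 changed by -0.80 in FL-HER2 and -0.84 in p95HER2 (adjusted p 9.83e-09 and 2.48e-09). Socs1 changed by -1.08 and -1.41 (adjusted p 0.0415 and 0.0103).

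Targets chiefly of interferon gamma followed the member mean across libraries, with r from 0.78 (Ciita) to 0.98 (Gbp3) over the same 39 libraries. Of 15 tested, none passed at day 10 with limma (median -0.36, none with an unadjusted p under 0.05). At day 22, 1 fell, beside 1.54% of all tested genes (Ciita, the switch for MHC class II, -1.09, SE 0.31, adjusted p 0.0331). The median there was -0.99, and 11 had an unadjusted p under 0.05. With time in p95HER2 4 fell, the chemokines Cxcl9 (-1.49) and Cxcl10 (-1.47), the GTPase Gbp2 (-1.52) and Socs1, beside 18.6% of all tested genes. In FL-HER2 Ciita rose by 0.79 and Socs1 fell, where 20.7% of all tested genes rose and 30.6% fell. The MHC class I list went the other way with time. Of 11 genes 4 rose in FL-HER2 (median 0.54), beside 20.7% of all tested genes. Among these were H2-Q4 at 0.92 (SE 0.31, adjusted p 0.0113) and the immunoproteasome subunit Psmb8 at 0.85 (SE 0.28, adjusted p 0.0112). In p95HER2 3 rose (median 0.60), beside 16.6% of all tested genes, with H2-K1 at 0.85 (SE 0.27, adjusted p 0.0132). No gene of this list passed between the constructs at either day.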

How the data were processed

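Bulk RNA from 39 PB2 tumors in 4 groups was sequenced by the submitters as directional poly(A) libraries. The submitters' processing notes name STAR 2.4.2a, mm10 and DESeq2. The sources used here do not give the read counter, annotation or strand setting. The authors' deposited table is named for CPM, but its values are log2(read count divided by a size factor, plus 1). This was read from the numbers themselves, 100% of which, once unlogged, came out as whole reads (within 0.001 reads) when divided by the smallest step of their library. The design written earlier allowed for either unit, and the deposited log2 values were used. Reads recovered from the step gave CPM for levels and filters, not corrected for gene length, so levels of different genes are not compared.

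The 13650 genes that reached 1 CPM in 9 or more libraries were tested. One limma 3.58.1 model (R 4.3.3, eBayes with a trend, 1 coefficient per group, 39 libraries) gave 5 two-sided contrasts, with calls made where p, adjusted by Benjamini-Hochberg over all tested genes, was under 0.05. The same model on absolute deviations from the group median tested spread. Both were tested on simulated data. Positions are GENCODE M21 on GRCm38, the assembly behind mm10.

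The 40 genes, the pathway and marker lists and the tests were chosen with earlier results of these data known. Genes named singly were the highest by mean CPM in each of 7 roles (a rule of choice, not a result), those called in any contrast, the most and least variable, and up to 4 per pathway list by smallest adjusted p, and further examples were named after their values were seen. Alternatives changed the pseudocount, filter, normalization, model, covariates and libraries; leaving out the 2 FL-HER2 day 10 libraries with 3-digit numbers was chosen after seeing the data. A gene of the pathway list is not reported here by name.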

Additional observations from a re-analysis of the deposited data

Results flagged for a closer look

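Of 160 sets of values (40 genes in 4 groups), 11 held a highest or lowest library farther from the rest than Dixon's test allows at the 95% level. Chance flags about 1 in 20 independent sets, but the members moved together, so these sets are not independent. No share over all tested genes is given. The gaps were not measured on the CPM scale in which values are given below. FL-HER2 day 22 replicate 1 was the library set apart for 7 genes, each time as the highest. It had 146 CPM of Ifih1 (the others 98.1 to 107), 182 CPM of Ddx58 (others 123 to 145) and 123 CPM of Samd9l (others 59.2 to 82.0). For the IFIT genes it had 225 CPM of Ifit1 (others 76.7 to 115), 166 CPM of Ifit3 (others 50.2 to 88.5) and 50.8 CPM of Ifit3b (others 17.4 to 25.8). Pml stood at 103 CPM there (others 59.3 to 79.8). This library was also the highest of its group in the T cell marker mean (8.06) and the pan-leukocyte mean (10.68).

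FL-HER2 day 22 replicate 7 was the lowest for the other 3 flagged genes of that group, with 83.5 CPM of Irf9 (others 112 to 138), 7.45 CPM of Mx1 (others 13.3 to 21.1) and 4.01 CPM of Mx2 (others 7.45 to 9.95). The last flag was Isg15 in p95HER2 day 22 replicate 6, at 114 CPM (others 43.1 to 69.2). No flag fell in either day 10 group, where the values of single libraries were spread out rather than 1 standing apart.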

How the results depend on the processing

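Of the 9 counts of members, the 4 counts of changed spread were 0 under all alternatives and all 39 fits without 1 library, as was the day 22 construct count except in the fit on only the groups compared (8). The day 10 construct count of 8 became 4 in that fit, 4 by rank-sum test, 17 with library weights, 1 with the muscle covariate, 1 (higher) with the leukocyte covariate, 38 with the term for digits and 4 without the 3-digit FL-HER2 day 10 libraries; without 1 library it ran from 5 to 18. The FL-HER2 time count of 5 became 3 with no filter, 3 with median-of-ratios size factors, 3 on only the groups compared, 3 without the 3-digit libraries, 1 by rank-sum test and 31 with the term for digits, and ran from 3 to 11 without 1 library. The p95HER2 time count of 2 became 6 with library weights, 1 by rank-sum test and 12 with the leukocyte covariate. It became 3, with Ifit3b lower, in the fit on only the groups compared and with the muscle covariate. The same held with the term for digits and without the 3-digit libraries. Smaller shifts of the other counts are not listed. The change between days gave 1 (Eif2ak2) without the 3-digit libraries. No share of all tested genes is given beside these alternative counts, so whether they exceed the background of their own fits is not shown.

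Day 10 estimates turned positive with the leukocyte covariate for 36 of the 40 members, among the genes followed singly for Isg15 (0.077), Oas1a (0.0104), Sp100 (0.10), Trim30a (0.0102), Irf7 (0.36), Zbp1 (0.73), Ifit1 (0.30), Oasl2 (0.34), Ifitm3 (0.22), Pml (0.22) and Lgals3bp (0.32), and for Zbp1 also with the muscle covariate (0.24) and without the 3-digit libraries (0.0355). The FL-HER2 time change of Lgals3bp was -0.25 with the term for digits. The cause of these shifts was not tested. No paired analysis was possible because the labels give no shared replicate numbers. Depth does not limit these values, since even 1 CPM stood for at least 21.8 reads, whereas the interferon ligands had few reads.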
